A study of Mus musculus with 42 samples.

Results

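The comparison of liver transcripts between female mice fed rapamycin (Rapa) and female mice fed a control diet used 20 of the 42 mice in the series, 11 Rapa females and 9 control females, picked by their labels alone. All were C57BL6/N mice aged 25 months. Rapa females ate chow with 14 ppm of encapsulated Rapa for 6 months, from the age of 19 months, and control females ate chow with the Eudragit capsule material for the same time. The mice were not fasted before the liver was taken, and RNA of each mouse was hybridized to 1 Illumina MouseRef-8 v2 array, so that each value below belongs to 1 mouse. The 22 males of the series, 10 control and 12 Rapa, shared the fit and were used to say where the females differed.

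Rapa binds the small immunophilin encoded by Fkbp1a, and this pair blocks mTOR complex 1, a kinase complex that senses amino acids and growth factors at the lysosome. The complex is known to favor ribosome production, translation, mitochondrial function and lipid synthesis and to hold back autophagy. In liver it is one of the routes by which feeding and insulin act on hepatocytes, the cells that make most plasma proteins and carry out bile acid, urea and drug metabolism.

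Levels are log2 of the quantile-normalized signal, and a log2 ratio is the mean of Rapa females minus that of control females. A transcript here is a probe, and it was tested if its detection score was over 0.95 on at least 9 arrays. This left 12719 transcripts, of which 11980 carried a symbol, for 8903 genes. Changed means an absolute log2 ratio over 0.15 with a limma p, adjusted by Benjamini-Hochberg over all tested transcripts, under 0.05; such transcripts are also said to pass, rise or fall. Of the 13 hepatocyte markers tested, 12 were detected on all 20 female arrays, with a mean level per control mouse of 13.02 to 13.53 and per Rapa mouse of 13.07 to 13.36. Of the 13, 3 were lower (23.1%, beside 9.28% of all genes tested) and none higher in all females, and 1 was lower without control females 6 to 9. That was Alb, the gene of serum albumin, whose probe was dim (7.46 to 8.27 in control females) and was the one not detected on all arrays. Its ratio was -0.40 (SE 0.10, adjusted p = 0.00421) and -0.39 (adjusted p = 0.0426) without control females 6 to 9, and between control females 1 to 5 and Rapa females 1 to 4 it was -0.61 (adjusted p = 0.00466). It did not pass by the t-test of the study's methods. The probe lay far below the mean level of the markers, so its ratio is not read here as a change of albumin mRNA.

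Arrays of 4 controls, control females 6 to 9, were unlike the rest on probes detected on no array. Results are therefore given with and without them. They are called controls 6 to 9 below. On the 9720 probes detected on no array, their arrays correlated with each other at an r of at least 0.373, and the other pairs of female arrays reached at most 0.294. Control females 1 to 5 detected 10765 to 11043 probes, control females 6 to 9 detected 9519 to 10406, and Rapa females 10368 to 11581. Background signal, taken as the lowest 5% of the probes, lay between 76.5 and 89.3 in control females 1 to 5 and between 86.8 and 89.7 in controls 6 to 9. It was 78.4 to 80.3 in Rapa females 1 to 4, against 102.4 to 107.7 in Rapa females 5 to 11. Median signal per array grouped the mice differently. For controls 1 to 5 it reached 124.4 at most, and for Rapa females 1 to 4 122.3. Every array of controls 6 to 9 had at least 141.7, and every array of Rapa females 5 to 11 at least 142.5. Without controls 6 to 9, only controls of low median signal remain, beside Rapa females of both ranges. That fit is therefore not balanced for median signal. Transcripts of B cells and plasma cells were also higher in controls 6 to 9, and those of MHC class II genes in some of these mice. The mean of 8 markers of B cells and plasma cells was 7.82 to 9.76 in them, and reached 7.75 in the other controls (lowest 7.42) and 7.77 under Rapa (lowest 7.38). The mean of 8 MHC class II genes was 9.31 to 11.83 in them, and reached 9.90 in the other controls (lowest 9.18) and 9.87 under Rapa (lowest 8.88). Other immune transcripts overlapped: the mean of 26 interferon-induced genes was 9.42 to 9.71 in controls 6 to 9 and 9.26 to 9.85 in the other controls. That of 17 neutrophil markers was 8.62 to 12.17 and 8.24 to 11.90. The part of these differences in the results was not tested. In whole liver, fewer cells of a type and less RNA per cell cannot be told apart.

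In all females, 2747 transcripts changed, or 21.6% of those tested, with 1555 higher (12.2%) and 1192 lower (9.37%) in Rapa females. Without control females 6 to 9 the number was 892 (7.01%), and the direction turned toward decreases, with 302 higher (2.37%) and 590 lower (4.64%). The transcripts changed in the same direction in both fits numbered 817 (6.42%), of which 275 were higher (2.16%) and 542 lower (4.26%). Of the increases in all females, 1280 no longer passed without these mice, and in 1217 of the 1280 control females 6 to 9 had a lower mean than control females 1 to 5. Of the decreases, 650 no longer passed, and in 591 of them control females 6 to 9 had the higher mean. In the smaller set of control females 1 to 5 against Rapa females 1 to 4, whose background signals were alike, 191 transcripts were lower and 27 higher. On the probes detected on no array, normalized among themselves, 14 of 9720 (0.144%) passed in all females by limma, with 725 at an unadjusted p under 0.05. Without control females 6 to 9 none passed and 522 had an unadjusted p under 0.05.

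Decreases also made up most of the transcripts by which the groups separated fully. In 228 transcripts (1.79%) every Rapa female lay on the same side of every control female, 203 of them lower (1.6%) and 25 higher (0.197%). The mean level of the 203 was 8.03 to 8.37 under Rapa, 8.69 to 8.88 in the first 5 controls and 9.04 to 9.20 in controls 6 to 9, an order that the choice of these transcripts fixes for the females. Males were not used in that choice. Their mean over the same transcripts was 8.41 to 8.74 on the control diet and 8.56 to 8.98 on Rapa, above the Rapa females in every mouse of both groups and below control females 6 to 9. The choice took transcripts low in Rapa females, which makes a higher level in other mice likely. None of the 203 fell in Rapa males and 9 rose, where 0.653% of all transcripts changed in males in either direction, and the median ratio of the 203 in males was 0.19. For the 25 higher transcripts, control males lay at 8.67 to 8.91 and Rapa males at 8.62 to 8.82, above every control female (8.32 to 8.58) and overlapping the Rapa females (8.74 to 9.03).

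**Figure D1:**
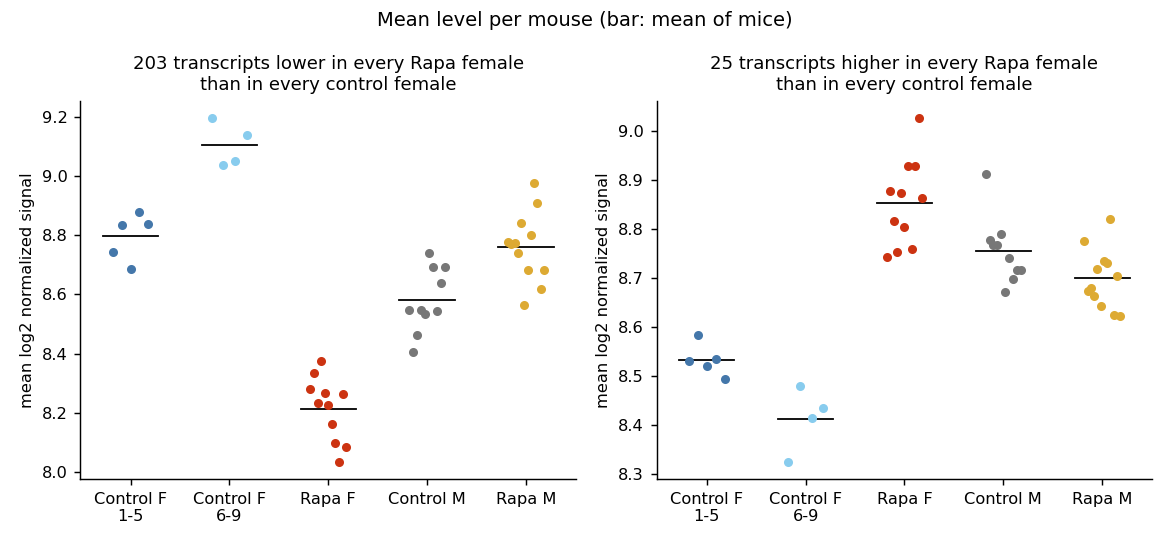
Mean log2 normalized signal per mouse over the 203 transcripts lower, and the 25 higher, in every Rapa female than in every control female, with 1 point per mouse and a bar for the mean of the mice. The separation of the females is fixed by the choice of transcripts. The 22 males, not used for it, lie above all Rapa females on the left, which the choice of transcripts low in Rapa females makes likely.

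Probes of the same gene could differ, which bears on every gene named below. Among genes with several tested probes, 210 had a probe that was lower in both fits, and in 12 of these (5.71%) all probes were. The median ratio of the lower probes was -0.48, and that of the other 288 probes of the same genes was 0.00, of which 20 were lower and 29 higher in all females. These others are by definition probes not lower in both fits, so their median is in part set by that choice, and medians of this kind are descriptions only. For the 203 transcripts that did not overlap, 67 genes had further probes, none of these genes had all probes in that set, and the median of the 101 other probes was -0.01. Among genes with a probe higher in both fits, 111 had several tested probes, and in 6 (5.41%) all were higher. The median was 0.31 for the changed probes and 0.10 for the other 162, of which 47 were higher and 12 lower. Nit2, which encodes an omega-amidase, is an example. Its dimmer probe gave 9.44 to 10.58 in controls (median 9.97) and 7.78 to 9.00 under Rapa (median 8.37), with no overlap and a ratio of -1.52 (SE 0.14, adjusted p = 1.41e-10). Its brighter probe gave 9.87 to 11.71 in controls (median 11.26) and 10.28 to 11.55 under Rapa (median 10.97), with a ratio of -0.21 (SE 0.16, adjusted p = 0.38). Without controls 6 to 9 both probes passed as lower, at -1.44 (adjusted p = 6.32e-08) and -0.49 (adjusted p = 0.0488), so that they then differed in size and not in direction. For Ist1, a factor of membrane scission, 1 of 3 probes fell by 1.18 and the others lay at -0.02 and 0.07. For Zfand6, a zinc finger protein, the dimmer probe fell by 1.27 and the brighter one rose by 0.27 (adjusted p = 0.037). Without controls 6 to 9 the dimmer one was at -1.10 (adjusted p = 2.74e-06) and the brighter one did not pass, at 0.16 (adjusted p = 0.471). The probes of Actb, the cytoskeletal actin, which was chosen after its values were seen, formed 2 sets: the 3 brighter ones did not pass (-0.28, -0.32 and -0.39, adjusted p = 0.189, 0.102 and 0.0951), and the 2 dimmer ones were lower (-0.96 and -0.95, adjusted p = 0.0171 and 0.016). The position of each probe in its transcript was not analysed here, and whether probes of 1 gene measure different transcript forms was not tested.

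**Figure D2:**
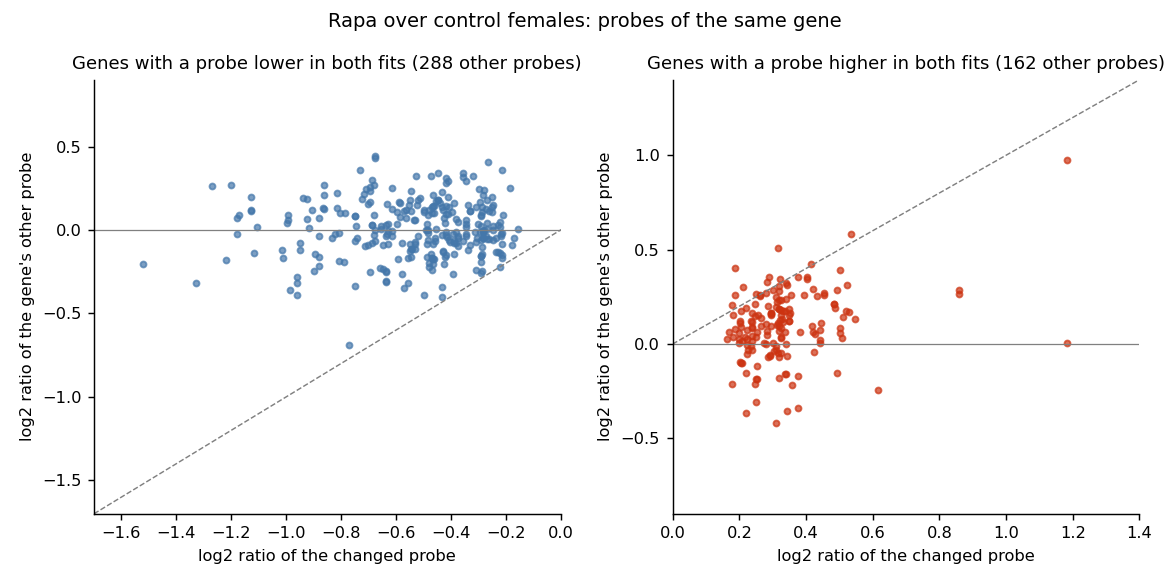
Log2 ratio of Rapa over control females for each other tested probe of a gene (vertical axis) against that of the gene's changed probe (horizontal axis, the farthest from 0 where several changed), for genes with a probe lower (left) or higher (right) in both fits. Dashed lines mark equal ratios. Most of the 288 points on the left lie near 0 whatever the ratio of the changed probe, in part because probes lower in both fits are left out of them.

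Gene lists are described by the brightest tested probe of each gene, with no test of the list. Over all 8903 genes, 1022 were higher (11.5%) and 826 lower (9.28%) in all females, and 200 were higher (2.25%) and 388 lower (4.36%), 6.6% in all, without control females 6 to 9. In both fits 2.04% were higher and 4% lower (6.04% in all). The groups did not overlap in 1.71% of genes, 0.18% higher and 1.53% lower. The median ratio of all genes was 0.02 in both fits. Counts of a list are to be read against these shares. Square brackets after a ratio hold the ratio without controls 6 to 9, and a transcript given in this way passed in both fits unless stated otherwise. Passing in both fits did not always hold between the females of like background, control females 1 to 5 and Rapa females 1 to 4. Ndufb4 and Txnrd1 passed there (adjusted p = 0.00867 and 0.00085 by limma). Hspa5, Foxo1, Eif3b and Glul kept their direction but did not pass (adjusted p = 0.114, 0.122, 0.214 and 0.378).

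Mtor, the kinase that Rapa acts on, rose in all females. It ranged over 7.77 to 8.38 in controls (median 8.04) and 8.37 to 9.09 under Rapa (median 8.45), and all 11 Rapa females lay above the control mean, though the lowest was within the range of the controls, with a ratio of 0.43 (SE 0.08, adjusted p = 0.000119). Without control females 6 to 9 the ratio was 0.28 (adjusted p = 0.052), so that it missed the threshold on p. Of 7 tested genes of the mTOR complexes, Akt1s1 (PRAS40), an inhibitor of complex 1, also rose, by 0.25 (adjusted p = 0.0278), and did not pass without control female 5, control female 9 or Rapa female 10 (adjusted p = 0.0589, 0.095 and 0.0577) nor without control females 6 to 9 (adjusted p = 0.222). Rictor, of complex 2, had a ratio of 0.07 (SE 0.10, adjusted p = 0.67) and Fkbp1a, the binding partner of Rapa, of -0.18 (SE 0.12, adjusted p = 0.303). Among 23 genes up and downstream of complex 1, 5 were lower and 2 higher. Lamtor2, which anchors the Rag GTPases to the lysosome, was lower (-0.62 [-0.46]), and Rragc, a Rag GTPase, and Hif1a, a transcription factor whose translation the complex favors, were higher (0.21 [0.26] and 0.30 [0.29]). Rraga also passed as lower, but was detected on 1 of 9 control arrays and on no Rapa array. Rptor and Prdx5 were not analysed here.

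Transcripts of the mitochondrial respiratory chain and the ATP synthase, which turn the energy of nutrients into ATP, were among those lower in Rapa females in both fits. Of 71 tested subunit genes, 16 were lower (22.5%) and 1 higher in all females. With controls 6 to 9 left out, 14 were lower (19.7%) and none higher, and the same 14 had been lower in all females. Their median ratio was -0.07, and -0.13 without these mice, with 65 of 71 ratios below 0. Atp5e, the epsilon subunit of the ATP synthase, ranged over 9.23 to 10.39 in controls (median 9.44) and 7.84 to 8.59 under Rapa (median 8.13). No Rapa female reached the lowest control, and the ratio was -1.29 (SE 0.11, adjusted p = 1.21e-10) and -1.13 (adjusted p = 2.09e-08) without control females 6 to 9. Between the females of like background it was -0.86 (adjusted p = 0.000301). Its alpha subunit Atp5a1 fell by 1.00 (adjusted p = 3.68e-06) and Atp5o by 0.23 (adjusted p = 0.0208), the latter not without control female 6 (adjusted p = 0.0624).

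In complex I, the NADH dehydrogenase, 6 of 32 genes were lower in both fits and 1 was higher in all females. The accessory subunit Ndufb4 ranged over 8.82 to 10.20 in controls (median 9.17) and 7.49 to 8.37 under Rapa (median 8.05), with a ratio of -1.23 (SE 0.14, adjusted p = 8.55e-09) and -0.98 (adjusted p = 6.95e-06) without control females 6 to 9. Ndufb9 had a ratio of -1.15 [-0.99], Ndufb2 of -0.87 [-0.67] and Ndufb5 of -0.96 [-0.63]. The groups of these 4 subunits did not overlap, as for 4 of the 32 genes, with Ndufb5 at 10.48 in its lowest control and 10.46 in its highest Rapa female. The ratio was -1.06 for Sdhd, the membrane anchor of complex II, -0.74 for Uqcrb of complex III, -1.11 and -0.47 for Cox7b and Cox7a2 of cytochrome c oxidase, and -0.60 for Cycs, which encodes cytochrome c. These 5 also passed without control females 6 to 9 (adjusted p = 0.00228, 0.000371, 8.77e-05, 0.00569 and 0.0177). The second probe of Cycs lay at 0.11 and did not pass.

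Mitochondrial ribosomal proteins, which translate the few proteins encoded in the mitochondrial genome, were lower for 14 of 71 genes and higher for 2 in all females, and lower for 8 and higher for none without control females 6 to 9, with 6 lower in both. Mrpl20 ranged over 10.93 to 11.91 in controls (median 11.17) and 10.13 to 10.73 under Rapa (median 10.36), without overlap, and had a ratio of -0.86 (SE 0.10, adjusted p = 2.06e-08) and -0.70 (adjusted p = 1.37e-05) without these mice. Mrps18c had a ratio of -0.51 [-0.49], Mrpl39 of -0.61 [-0.51] and Mrps25 of -0.23 [-0.28]. The dimmer probes of Mrps25 did not pass, at -0.13 and 0.03 (adjusted p = 0.0724 and 0.72). The dimmer of the 2 probes of Mrpl13 fell by 1.22, the smallest adjusted p of any transcript named here (1.89e-11), while the brighter one had a ratio of -0.18 (-0.12, adjusted p = 0.344 without control females 6 to 9). Of 22 genes of mitochondrial protein import, 4 were lower and 1 higher, and 3 were lower without control females 6 to 9. Pmpcb, the beta subunit of the protease that removes import signals, ranged over 10.15 to 10.77 in controls (median 10.38) and 8.66 to 9.76 under Rapa (median 9.61), with no overlap and a ratio of -1.05 (SE 0.12, adjusted p = 1.5e-08). Tomm70a, a receptor of the outer membrane, had a ratio of -0.55 [-0.51]. Aifm1, a flavoprotein of the intermembrane space that helps in complex I assembly, fell by 1.01 by 1 of its 2 probes, and the other lay at -0.17 (adjusted p = 0.21).

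The citric acid cycle moved in both directions. Ogdh, a component of the 2-oxoglutarate dehydrogenase, rose by 0.54 (SE 0.08, adjusted p = 7.25e-06), with 8.84 to 9.73 in controls (median 9.39) and 9.66 to 10.32 under Rapa (median 9.86). Its partner Dld, the dihydrolipoamide dehydrogenase, fell by 0.79 (adjusted p = 0.00017) and Idh2, the NADP-dependent isocitrate dehydrogenase, by 0.77 (adjusted p = 0.000173). These 3 were the genes of the 15 tested that passed in both fits. Of 24 genes of fatty acid oxidation and ketogenesis only Hadh, the short-chain hydroxyacyl-CoA dehydrogenase, passed, at -0.66 [-0.52].

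Cytosolic chaperones, which fold new proteins and protect damaged ones, had the largest share of lower genes among the lists of 20 or more tested genes. Of 25 genes, 11 were lower (44%) and none higher in all females, and 7 were lower (28%) and none higher without control females 6 to 9. Hsp90aa1, the stress-induced HSP90, ranged over 7.81 to 8.51 in controls (median 8.20) and 7.00 to 7.67 under Rapa (median 7.35) without overlap, and had a ratio of -0.87 (SE 0.10, adjusted p = 4.1e-08) and -0.76 (adjusted p = 6.94e-05) without control females 6 to 9. It was detected on 9 of 9 control arrays and on 4 of 11 Rapa arrays, so that most Rapa values were at background and the ratio is not exact. Ptges3, the HSP90 co-chaperone p23, was bright enough to be detected on all 20 arrays. It ranged over 9.85 to 10.34 in controls (median 10.14) and 9.04 to 9.74 under Rapa (median 9.55), and its ratio of -0.60 (SE 0.08, adjusted p = 2.98e-07) was -0.69 (adjusted p = 4.32e-06) without control females 6 to 9 and -0.55 (adjusted p = 0.00287) between the females of like background. The chaperonin subunits Cct5 and Cct7, parts of the ring that folds actin and tubulin, had ratios of -0.87 [-0.66] and -0.24 [-0.26]. They were detected on 8 and 5 of the 11 Rapa arrays.

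**Figure D3:**
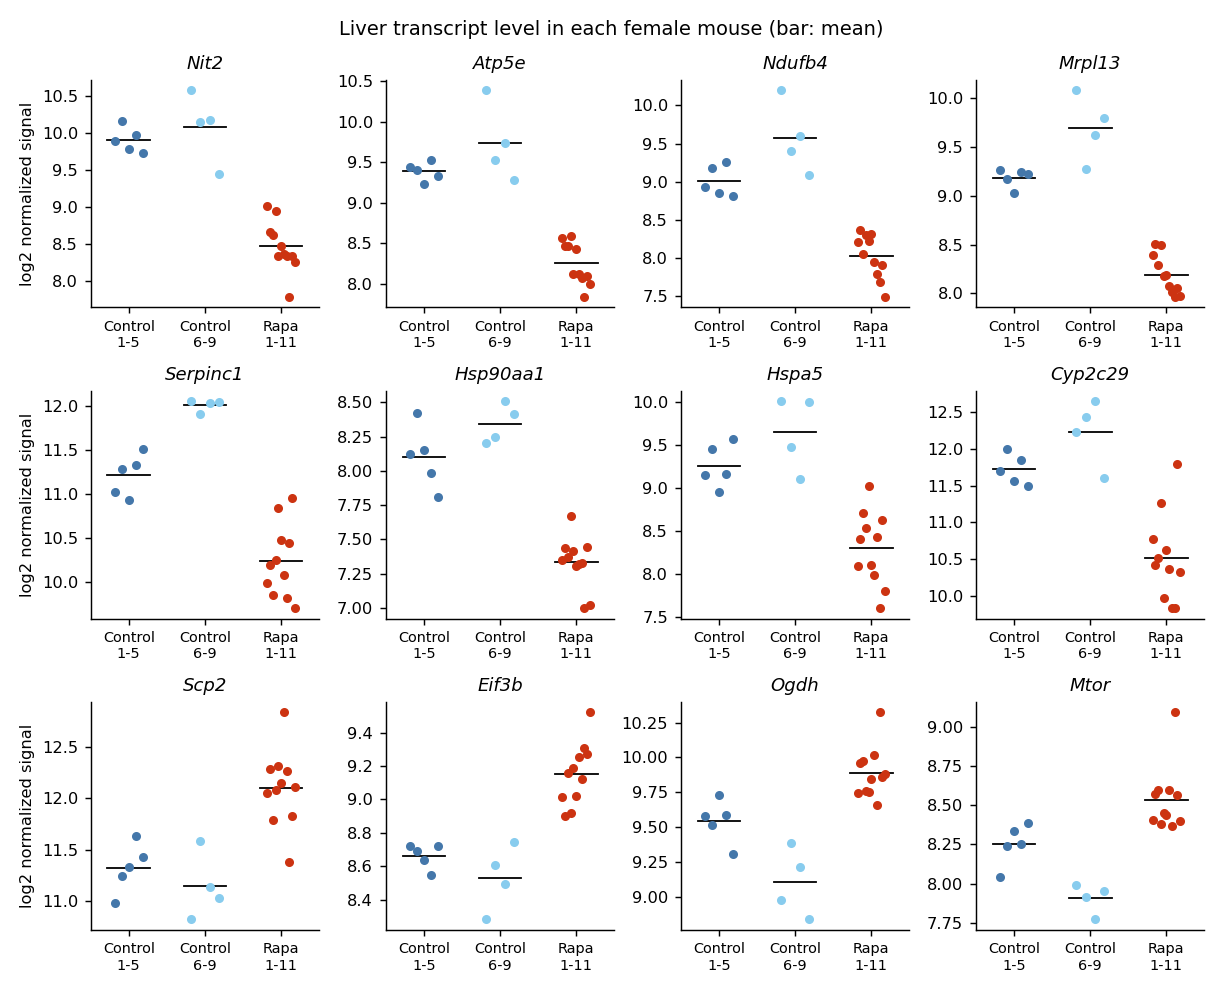
Log2 normalized signal of 12 transcripts in each female, with control females 1 to 5, control females 6 to 9 and Rapa females 1 to 11 apart and a bar for the mean of each set. For Nit2, Mrpl13 and Scp2 the dimmest tested probe is shown. All Rapa females lie below all controls for Nit2, Atp5e, Ndufb4, Mrpl13 and Hsp90aa1, above all controls for Eif3b, and the groups overlap in the other panels.

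Chaperones of the endoplasmic reticulum moved mostly the other way in all females. Of 24 genes, 7 were higher and 2 lower in all females, and 1 was higher and 1 lower without control females 6 to 9. Hspa5 (BiP), the main HSP70 of this compartment, ranged over 8.95 to 10.01 in controls (median 9.46) and 7.61 to 9.03 under Rapa (median 8.41), with a ratio of -1.13 (SE 0.19, adjusted p = 1.79e-05) and -0.95 (adjusted p = 0.00457) without control females 6 to 9. Herpud1, a factor of the degradation of misfolded proteins that is induced by the same stress response, rose by 0.53 and 0.58 by its 2 probes (adjusted p = 0.00357 and 0.00332). Without control females 6 to 9 its ratios were 0.51 and 0.54 (adjusted p = 0.049 and 0.0511). Eif2ak3 (PERK), a sensor of this stress, fell by 0.27, and Pdia4, Pdia3, P4hb, Ero1b, Edem1 and Ssr3 rose by 0.25 to 0.45 in all females, genes named after their values were seen, none of which passed without control females 6 to 9.

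The promoter of Hspa5 is shown because the gene carries a known endoplasmic reticulum stress element, read by ATF6 with NF-Y, that other genes of the list share while their levels differed from it. The sequence is that of RefSeq on GRCm38.p6, chr2:34771940-34772089, + strand, the 150 bases before the start of the transcript, with the ends of the element in capitals.
Hspa5: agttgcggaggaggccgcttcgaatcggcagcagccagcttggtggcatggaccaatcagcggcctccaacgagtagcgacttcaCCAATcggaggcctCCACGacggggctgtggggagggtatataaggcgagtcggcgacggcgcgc
The motif searched, 19 bases long, was CCAAT and CCACG with any bases between them, on both strands, in windows of 250 bases before to 50 after the start of each transcript. It was found in 39 of 32851 windows (0.119%). Of the 26 genes of the list, 22 had a window and 9 the motif, 8 of them tested. The sites are printed with 5 bases on each side, in the direction in which the motif reads.
Hspa5, chr2:34772020-34772048: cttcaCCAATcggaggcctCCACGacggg
Hsp90b1, chr10:86705528-86705556: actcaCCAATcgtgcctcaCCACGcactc
Hsp90b1, chr10:86705633-86705661: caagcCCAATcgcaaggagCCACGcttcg
Calr, chr8:84847070-84847098: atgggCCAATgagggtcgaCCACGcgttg
Pdia6, chr12:17266486-17266514: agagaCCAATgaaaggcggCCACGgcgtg
Dnajc3, chr14:118937822-118937850: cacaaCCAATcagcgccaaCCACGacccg
Creld2, chr15:88819515-88819543: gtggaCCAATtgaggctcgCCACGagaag
Syvn1, chr19:6046527-6046555: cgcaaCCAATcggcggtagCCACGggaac
Ero1b, chr13:12565677-12565705: ggcggCCAATgaggcgggaCCACGaggcc
Of these 8 genes, Hspa5 was lower and Ero1b, an oxidase that keeps protein disulfide isomerase active, higher (0.45 [0.25], adjusted p = 0.043 and 0.532, so that it did not pass without controls 6 to 9). The other 6 did not pass: the ratio was 0.16 for Hsp90b1 (GRP94), 0.11 for the lectin chaperone Calr, -0.06 for Pdia6, 0.13 for Dnajc3, 0.14 for Creld2 and 0.06 for the ubiquitin ligase Syvn1. A match describes the letters of the window and does not show that a factor was bound.

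Genes of cytosolic ribosomal proteins, the building blocks of the translating ribosome, mostly did not pass. Of 56 genes, 10 were lower (17.9%) and 1 higher, and without control females 6 to 9 only 3 were lower (5.36%) and none higher. The median ratio moved from -0.17 to -0.01. Mean levels of the 56 genes per mouse were 11.96 to 12.53 under Rapa, 12.14 to 12.45 in the first 5 controls and 12.25 to 12.86 in controls 6 to 9. The 3 genes that passed in both fits were Rps3a1 (-1.12 [-0.75]), Rps9 (-0.81 [-0.37]) and Rpl35a (-0.70 [-0.45]). Rps3a1 ranged over 10.83 to 12.53 in controls (median 11.45) and 9.96 to 10.82 under Rapa (median 10.33) and did not overlap. Rps9 passed by the brighter of its 2 probes, and the other lay at -0.18 (adjusted p = 0.406). Ribosomal protein genes have many near-identical pseudogenes, so the source of such signals is uncertain.

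Translation initiation factors split by subunit. Eif3b, the scaffold subunit of eIF3, rose by 0.55 (SE 0.09, adjusted p = 8.42e-06), with 8.28 to 8.75 in controls (median 8.64) and 8.90 to 9.52 under Rapa (median 9.16) and no overlap. The dimmer probe of Eif3b lay at 0.13 and did not pass, by its size. Eif2s3x, the X-linked gamma subunit of eIF2, rose by 0.58 (adjusted p = 0.000105). Eif3k and Eif3h, also subunits of eIF3, fell by 0.87 and 0.51 (adjusted p = 8.42e-06 and 1.01e-05). All 4 passed without control females 6 to 9, at 0.49, 0.53, -0.51 and -0.33, and over the list of 28 genes 5 were higher and 4 lower. Of 17 cytosolic aminoacyl-tRNA synthetases, 4 were higher and 1 lower, and Eprs, which charges glutamate and proline tRNAs, passed in both fits at 0.51 [0.32] by 1 of its 2 probes. Of 21 ribosome assembly factors 5 were lower and 1 higher, with Nop14 at -0.64 [-0.44]. Of 10 elongation and release factors 1 was lower, the recycling factor Abce1, at -0.45 [-0.26], and it did not pass without control females 6 to 9 (adjusted p = 0.148).

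The proteasome, which degrades ubiquitin-tagged proteins, was lower for 9 of 43 genes (20.9%) and higher for 1 in all females, and lower for 1 (2.33%) without control females 6 to 9. That gene was Psmc6, an ATPase of the 19S base, which ranged over 7.71 to 8.09 in controls (median 7.88) and 7.20 to 7.57 under Rapa (median 7.42) without overlap, at -0.51 (SE 0.07, adjusted p = 5.43e-07) and -0.45 (adjusted p = 0.000356) without these mice. The catalytic subunit Psmb5 had a ratio of -0.36 (SE 0.08, adjusted p = 0.00164) and Psmb10, a catalytic subunit of the immunoproteasome, of -0.38 (SE 0.12, adjusted p = 0.0225). Both missed the threshold without control females 6 to 9, at -0.21 (adjusted p = 0.168) and -0.27 (adjusted p = 0.318), and Psmb10 also without control female 9 alone (adjusted p = 0.0583). The dimmer probe of Psmb10 did not pass in all females, at -0.21 (adjusted p = 0.226). The lid subunits Psmd14 and Psmd6 lay at -0.37 (SE 0.10, adjusted p = 0.00837) and -0.35 (SE 0.11, adjusted p = 0.021) and did not pass without these mice (adjusted p = 0.123 and 0.27), Psmd6 also not without control female 6 alone (adjusted p = 0.0531). The second probe of Psmd6 fell by 0.57 and passed in both fits.

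For Psmb7, Psmd11 and Psmd12 the brightest probe did not pass (-0.04, -0.25 and 0.01, adjusted p = 0.756, 0.0667 and 0.901), while a dimmer one was lower. The dimmer probe of Psmd11 ranged over 8.68 to 9.19 in controls (median 8.91) and 7.62 to 8.26 under Rapa (median 8.05), without overlap, at -0.90 (SE 0.10, adjusted p = 3.14e-09) and -0.84 (adjusted p = 4.31e-06) without control females 6 to 9. Those of Psmb7 and Psmd12 had ratios of -0.38 [-0.36] and -0.56 [-0.45], and the latter did not pass without these mice (adjusted p = 0.0606). Ube2j1, a ubiquitin-conjugating enzyme of the endoplasmic reticulum, passed in both fits at -0.43 [-0.25], and Ube2e3 rose by 0.22 and 0.29 by its 2 probes. Clpp, the mitochondrial protease subunit, had a ratio of -0.05 (SE 0.08, adjusted p = 0.737).

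Autophagy genes, which mTOR complex 1 is known to restrain, were higher for 9 of 29 (31%) and lower for 1 in all females. With controls 6 to 9 left out, 1 was higher and none lower, and the median ratio was 0.08 in place of 0.12. The gene that passed in both fits was Nbr1, a receptor that carries ubiquitin-tagged cargo, at 0.25 [0.26] and 0.33 [0.25] by its 2 probes. Its brighter probe did not pass in a fit on females alone or by the t-test of the study's methods. Between the females of like background that probe was at 0.25 (adjusted p = 0.19 by limma). The other autophagy genes that passed in all females were Ulk1, Ulk2, Atg13, Atg7, Atg16l1, Wipi2, Gabarap and Sqstm1, higher by 0.27 to 0.47, and Map1lc3b, which fell by 0.49. These were named after their values were seen. Among 31 genes of lysosomal enzymes and membrane proteins, 5 were lower and 3 higher. The cholesterol carrier Npc2 was at -0.73 [-0.47] and passed in both fits. Among 19 subunits of the vacuolar ATPase, which acidifies lysosomes, Atp6v1a was at -0.63 [-0.49] and Atp6v1d at 0.33 [0.27].

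**Figure D4:**
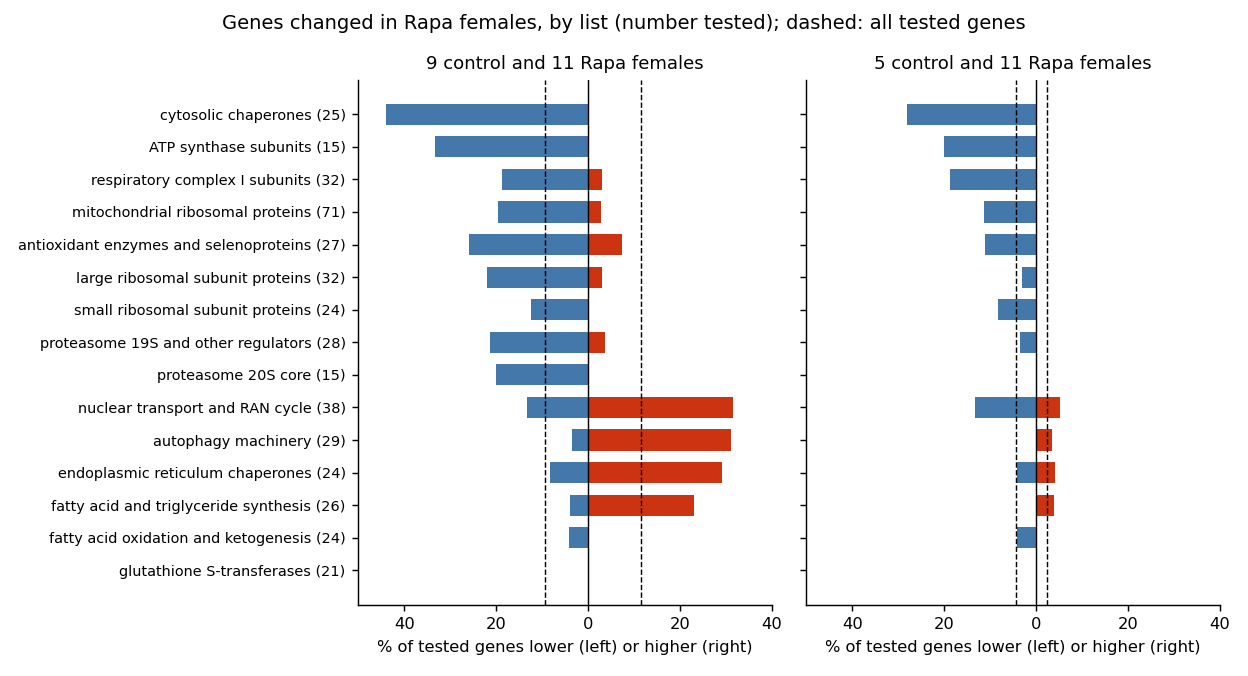
Share of the tested genes of 15 lists, by their brightest probe, that were lower (left of 0, blue) or higher (right of 0, red) in Rapa females, with all 9 control females (left) and with control females 1 to 5 (right). Dashed lines mark the shares over all 8903 genes, 9.28% lower and 11.5% higher on the left and 4.36% and 2.25% on the right. Cytosolic chaperones lay at 44% and 28% lower.

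Genes of redox control were lower in part. Of 27 antioxidant enzymes and selenoproteins, 7 were lower and 2 higher in all females, and 3 were lower without control females 6 to 9. Txn1, the cytosolic thioredoxin, ranged over 10.69 to 11.74 in controls (median 10.92) and 9.73 to 10.82 under Rapa (median 9.99), with a ratio of -1.01 (SE 0.14, adjusted p = 9.49e-07). The dimmer probe of Txn1 lay at -0.12 and did not pass, by its size. Its reductase Txnrd1 did not overlap, with 8.14 to 8.87 in controls (median 8.45) and 7.46 to 7.92 under Rapa (median 7.70) and a ratio of -0.78 (SE 0.08, adjusted p = 9.82e-10). Their ratios without controls 6 to 9 were -0.71 (adjusted p = 0.00187) and -0.62 (adjusted p = 1.07e-06). Glrx3, a cytosolic glutaredoxin, fell by 0.95 by the brightest of its 3 probes and the others lay at -0.12 and -0.08. Selenok, a selenoprotein of the endoplasmic reticulum, was at -0.92 [-0.77]. Glrx2, the mitochondrial glutaredoxin, fell by 0.34 (adjusted p = 0.00573) and did not pass without control females 6 to 9 (adjusted p = 0.339). The dimmer probe of Glrx2 did not pass, at -0.07 (adjusted p = 0.647). Of 24 genes of the NRF2 pathway Txnrd1 was the gene lower in both fits. None of the 21 glutathione S-transferases passed in either fit by limma, with 1 at an unadjusted p under 0.05 in each and median ratios of -0.11 and -0.17.

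Of 38 genes of nuclear transport, 12 were higher (31.6%) and 5 lower in all females, and the same 5 were lower (13.2%) and 2 higher without control females 6 to 9. Over the list, 24 of the 38 ratios were above 0 in all females. The median ratio was 0.06, and 0.05 without control females 6 to 9. The importins Kpna3, Kpnb1 and Kpna2 were among the lower genes. Kpna3, an importin alpha, ranged over 8.72 to 9.50 in controls (median 9.07) and 7.77 to 8.51 under Rapa (median 8.19) without overlap, at -0.93 (SE 0.10, adjusted p = 6.88e-09) and -0.81 (adjusted p = 1.37e-05) without these mice. Kpnb1, the importin beta that carries it through the pore, was at -0.67 [-0.56], Kpna2 at -0.21 [-0.22] and the pore protein Ranbp2 at -0.24 [-0.29]. The last 2 were detected on 3 and 4 of 11 Rapa arrays.

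Among transcripts of plasma proteins, Serpinc1, which encodes antithrombin, the main inhibitor of thrombin, ranged over 10.93 to 12.05 in controls (median 11.50) and 9.70 to 10.96 under Rapa (median 10.19) by its brighter probe. Controls 6 to 9 lay at 11.90 to 12.05 and the other controls at 10.93 to 11.50, and the ratio of -1.33 (SE 0.16, adjusted p = 5.29e-08) became -0.97 (adjusted p = 0.000207) without the former. Its second probe was at -0.32 (SE 0.11, adjusted p = 0.0352) and -0.28 (adjusted p = 0.241). Of 25 coagulation factors and inhibitors, 5 were higher and 3 lower, and F12, factor XII, rose by all 3 probes in both fits (brightest 0.36 [0.34]). Apoh, a lipid-binding plasma protein, was at -0.80 [-0.58], Afm, the vitamin E carrier afamin, at -0.71 [-0.73], and the complement protease C1s1 at 0.49 [0.60]. The dimmer probe of C1s1 did not pass, at 0.19 (adjusted p = 0.316).

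Mug1 and Mug2, which encode the murinoglobulins, inhibitors of plasma proteases, were higher, with ratios of 0.78 [0.97] and 1.18 [1.64], the latter by the brightest of 3 probes. The second was at 0.97 (adjusted p = 0.0586) and passed without controls 6 to 9 at 1.47 (adjusted p = 0.0258), and the third did not pass, at 0.01 (SE 0.06, adjusted p = 0.959). They varied widely among controls: Mug2 spanned 8.87 to 13.55 in controls (median 12.44) and 11.88 to 13.89 under Rapa (median 13.28), and the groups overlapped. Neither Mug1 nor Mug2 passed in a fit on females alone or by the t-test of the study's methods. Between the females of like background they were at 0.47 and 1.17 (adjusted p = 0.619 and 0.292 by limma). These 2 genes are near-identical copies, as are the major urinary proteins, so a probe may read more than its named gene. Mup20 (darcin), a major urinary protein of mouse scent, had the largest decrease by ratio of the transcripts lower in both fits, -1.72 (SE 0.43, adjusted p = 0.00298), at 10.32 to 13.12 in controls (median 12.47) and 7.45 to 12.09 under Rapa (median 10.23). Of 5 major urinary protein genes, 2 were lower and none higher.

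Among enzymes of drug and steroid metabolism, Cyp2c29 ranged over 11.49 to 12.64 in controls (median 11.84) and 9.84 to 11.78 under Rapa (median 10.43), and its ratio of -1.42 (SE 0.26, adjusted p = 9e-05) was -1.19 (adjusted p = 0.0146) without control females 6 to 9. Aadac, an esterase of the endoplasmic reticulum, ranged over 9.02 to 10.48 in controls (median 10.11) and 7.68 to 9.48 under Rapa (median 8.70) and was at -1.31 [-1.23]. Sult1e1, the estrogen sulfotransferase, was at -1.31 [-1.02] and was detected on 7 of 11 Rapa arrays. Of 24 genes of the Cyp2 family 2 were lower and 1 higher, and none of 3 Cyp3a genes passed by limma or at an unadjusted p under 0.05, with Cyp3a11 at -0.19 (SE 0.21, adjusted p = 0.568) and Cyp3a25 at 0.16 (SE 0.17, adjusted p = 0.557). For Ugt1a6a the brightest of 3 probes fell by 0.68 while the others rose by 0.44 and 0.43 (adjusted p = 0.003, 0.00753 and 0.0167). Without controls 6 to 9 the brightest still passed, at -0.67 (adjusted p = 0.0387), and the others did not, at 0.38 (adjusted p = 0.0802) and 0.33 (adjusted p = 0.172). Akr1d1, the steroid 5-beta-reductase of bile acid synthesis, was at -0.41 [-0.52]. Akr1c6, a hydroxysteroid dehydrogenase, was detected on 8 of 9 control arrays and no Rapa array and was at least 1.20-fold higher in control females, a bound against the lowest signal of a detected probe on each Rapa array. Without controls 6 to 9 the bound was 1.14-fold. The limma ratio of its measured signals, not the bound, had an adjusted p of 0.00046 and 0.0191.

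In lipid metabolism, Idi1, the isopentenyl isomerase of cholesterol synthesis, ranged over 8.54 to 10.42 in controls (median 9.69) and 7.87 to 9.19 under Rapa (median 8.49), at -1.13 [-0.87], and it was 1 of 2 lower genes among 20 of that pathway, with 1 higher. Fatty acid and triglyceride synthesis had 6 higher and 1 lower of 26 genes in all females and 1 higher without control females 6 to 9, Agpat2, the acyltransferase of phosphatidic acid synthesis (0.46 [0.44]). Scp2, a sterol carrier of peroxisomes, rose by 0.86 by the dimmest of its 3 probes, with 10.82 to 11.63 in controls (median 11.25) and 11.38 to 12.84 under Rapa (median 12.11), and by 0.29 by the brightest (adjusted p = 1.94e-05 and 0.0434), which did not pass without controls 6 to 9, at 0.22 (adjusted p = 0.36). The dimmest passed in both fits (0.78), and between the females of like background (0.73 (adjusted p = 0.046)), where none of the other 11 largest increases passed and all 12 kept their direction. Of the 20 decreases named for their size or gap, 15 passed there. None of these 32 transcripts lost its call when any 1 female was left out. The 32 were picked in these same mice for large changes or wide gaps, which makes such outcomes likely. These counts are therefore descriptions only.

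Pcx, the pyruvate carboxylase that starts gluconeogenesis, was higher (0.40 [0.44]). Pck1, the enzyme of its next step, fell by 0.91 (adjusted p = 0.0141) but lay at -0.30 without control females 6 to 9 (adjusted p = 0.625). Foxo1, a transcription factor that insulin keeps out of the nucleus and that drives such genes, was higher with no overlap, though by a narrow gap, with 7.88 to 8.51 in controls (median 8.35) and 8.52 to 9.14 under Rapa (median 8.74) and a ratio of 0.44 [0.32]. Of 37 genes of the urea cycle and amino acid catabolism, 6 were lower and 4 higher in all females and 2 lower without control females 6 to 9. The latter were Glul, glutamine synthetase of the cells around the central vein (-1.10 [-0.84]), and Slc25a13, the mitochondrial carrier citrin (-0.75 [-0.73]). Rgn (regucalcin), an enzyme of the ascorbate route known for its decline with age in rat liver, ranged over 8.87 to 10.28 in controls (median 9.10) and 7.42 to 8.63 under Rapa (median 8.14) without overlap, at -1.25 [-0.97].

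Slc3a2, the heavy chain of the LAT1 amino acid transporter through which leucine reaches mTOR, was detected on 9 of 9 control arrays and on no Rapa array. It was at least 1.77-fold higher in control females by the same bound, and at least 1.43-fold higher without control females 6 to 9. The limma ratio of its measured signals, not the bound, had an adjusted p of 2.88e-11 and 2.18e-10. Grtp1, a TBC domain protein, was at -0.95 [-0.85], detected on 9 of 11 Rapa arrays. Gng5, a G protein gamma subunit, was at -1.23 [-0.87] and Gm12657, a gene with no role given here, at -1.33 [-1.04]. Groups of all 3 were free of overlap. The other large increases were 1810055G02Rik (0.97 [0.87]), the ubiquitin ligase Trim2 (0.62 [0.49]), Nploc4, a cofactor of the p97 segregase (0.57 [0.50]), the choline transporter Slc44a1 (0.54 [0.52]) and the adhesion protein Nectin2 (0.53 [0.54]). The brighter probe of Trim2 gave that ratio, and its dimmer one fell by 0.24 (adjusted p = 0.00428) but did not pass without controls 6 to 9, at -0.13 (adjusted p = 0.269). Pcna, the sliding clamp of DNA replication, was the gene lower among 19 of cell cycle and replication, at -0.81 [-0.46], detected on 9 of 9 control and 2 of 11 Rapa arrays.

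Among other lists of liver metabolism, of 16 UDP-glucuronosyltransferases and sulfotransferases 3 were lower and none higher, of 22 genes of bile acid synthesis and transport 3 were lower and 1 higher, and of 18 of gluconeogenesis, glycogen and glycolysis 4 were lower (22.2%) and 2 higher. Without controls 6 to 9 these lists had 2, 2 and 0 lower, and the last 1 higher. Of 17 apolipoproteins and lipoprotein assembly genes 1 was lower and 1 higher, and of 20 complement genes 1 was lower and 2 higher. Of 20 nuclear receptors and liver transcription factors 2 were higher in all females and none passed without controls 6 to 9 by limma, where 4 had an unadjusted p under 0.05. The 2 were Rxra, the partner of many such receptors (0.28 [0.14]), and Ppargc1b, a coactivator of lipid and mitochondrial genes (0.39 [0.24]). Rxra did not pass without control female 6 or 9 alone (adjusted p = 0.0665 and 0.0695). Of 11 Cyp4 fatty acid hydroxylases 1 was higher, Cyp4f15 (0.35 [0.18]), and did not pass without these mice. Of 9 FK506 binding proteins, the family of Fkbp1a, Fkbp7 of the endoplasmic reticulum was lower (-0.37 [-0.30]). Sgsh, a lysosomal sulfatase, was lower as well (-0.39 [-0.20]), though detected on 6 of 9 control and 0 of 11 Rapa arrays. By the bound used for Akr1c6, Sgsh was at least 1.12-fold higher in control females. Without controls 6 to 9 the bound was 0.99-fold, which sets no least decrease.

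Few markers of immune and blood cells passed, and those that fell in all females mostly did not pass without control females 6 to 9. H2-Aa, an alpha chain of the class II molecules, ranged over 10.60 to 13.94 in controls (median 11.23) and 9.72 to 11.09 under Rapa (median 10.07), at -1.39 (SE 0.33, adjusted p = 0.002) and -0.79 (adjusted p = 0.152) without these mice. Ctss, the protease that prepares class II molecules for peptides, went from -1.01 to -0.45 (adjusted p = 0.000889 and 0.216), Hbb-bt, an adult beta globin, from -0.91 to -0.34 (0.0106 and 0.51), the complement factor Cfb from -0.78 to -0.33 (0.000112 and 0.0956), and Fcrla of B cells, by 1 of its 3 probes, from -0.57 to -0.10 (0.035 and 0.804). The other probes of Fcrla did not pass, at -0.41 and -0.40 (adjusted p = 0.114 and 0.0855). The passing one did not pass without control female 7, 8 or 9 or Rapa female 3 or 5 alone (adjusted p = 0.0632, 0.122, 0.107, 0.0502 and 0.0515). Of 26 interferon-induced genes 4 were lower in all females and none without controls 6 to 9 by limma (3 at an unadjusted p under 0.05), with Irgm1 at -0.49 [-0.24] and Ifi47 at -0.72 [-0.46]. The dimmer probe of Irgm1 did not pass, at 0.03 (adjusted p = 0.898). None of 8 B cell and plasma cell markers passed in either fit by limma, while 5 had an unadjusted p under 0.05 in all females and 0 without controls 6 to 9. Cd79b, of the B cell receptor, had a ratio of -0.76 (adjusted p = 0.069), and the median of the 8 went from -0.42 to 0.01. Among 19 macrophage and Kupffer cell markers 2 were lower in all females, Ctss and Adgre1 (F4/80), the latter at -0.56 [-0.33] and not passing without controls 6 to 9 or when any 1 of 14 of the 20 females was left out. The dimmer probes of Adgre1 did not pass, at -0.08 and 0.02 (adjusted p = 0.808 and 0.908).

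Prf1, the perforin of cytotoxic lymphocytes, passed in both fits. It ranged over 8.64 to 9.61 in controls (median 8.96) and 7.71 to 8.53 under Rapa (median 8.34) without overlap, at -0.84 (SE 0.13, adjusted p = 8.22e-06) and -0.79 (adjusted p = 0.00103) without control females 6 to 9. It was the gene of the 12 T and NK cell markers that passed, and the mean of the 12 was 7.56 to 8.04 under Rapa, 7.77 to 8.01 in the first 5 controls and 7.87 to 8.78 in controls 6 to 9. Of 17 neutrophil markers only Wfdc21 passed, at -0.85 (SE 0.23, adjusted p = 0.0055), and not without control females 6 to 9 (adjusted p = 0.198). Their mean varied widely within each diet, from 8.24 to 12.17 in controls and from 8.21 to 11.83 under Rapa. Of 18 markers of sinusoidal endothelium 4 were lower, and F8, coagulation factor VIII, which these cells make, passed in both fits at -0.24 [-0.35] by the brightest of 3 probes, but not without control female 3 (adjusted p = 0.0704).

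Genes known for a sex difference in liver seldom passed. Of 18 female-biased genes 1 was higher and 1 lower, and of 33 male-biased genes 2 were lower. Of 20 genes of growth hormone, insulin and IGF signaling 3 were higher and 3 lower. None of 15 clock genes passed without control females 6 to 9 by limma, with 1 at an unadjusted p under 0.05, and Per1 and Per2, repressors of the clock, were higher in all females (0.49 and 0.55, adjusted p = 0.0209 and 0.0269). Per2 did not pass without control female 5, 6 or 7 or Rapa female 9 alone (adjusted p = 0.0501, 0.0656, 0.0518 and 0.0599). By the study's methods all livers were taken in the same hours of the morning. Of 17 p53 targets and senescence genes 1 was higher, Zmat3 (0.24 [0.23]), not without control females 6 to 9 (adjusted p = 0.114) nor without control female 6 alone (adjusted p = 0.0576). The senescence marker Cdkn2a lay at -0.13 (SE 0.06, adjusted p = 0.0878).

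Changes in males were few beside those in females. In males 83 transcripts changed (0.653%), and these did not include any of the 46 transcripts that were named in females for the largest changes or widest gaps, as proteolysis and redox genes of interest to the study, or as targets of Rapa. The effect in females minus that in males passed for 2593 transcripts (20.4%) in all females and for 1139 (8.96%) without control females 6 to 9. This count rested on the processing, with 4675 after centring on the median and 558 with the components of the probes detected on no array as covariates. Of the 46 it passed for 35, and for 29 of these 35 also without control females 6 to 9. Most of the 46 were chosen for their change in females, which sets the sign of the difference in large part and makes it likely to pass, so this count is a description only. Nit2, for example, was at -1.52 in females and 0.30 in males, Mrpl13 at -1.22 and 0.33, Atp5e at -1.29 and 0.12, and Scp2 at 0.86 and -0.35. No source used here gives the slide of an array or the order of hybridization.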

How the data were processed

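Liver RNA of 42 mice, 20 of them female, was hybridized to 1 Illumina MouseRef-8 v2 array per mouse. The authors deposited the signal intensity of each of 25697 probes from GenomeStudio, not normalized, with a detection score, a fraction from 0 to 1 that is higher for probes above the negative controls. They also deposited log2 values of 17082 probes, which the authors quantile-normalized in Matlab. The deposited files give no counts, so the precision rests on the number of mice.

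Intensities were transformed to log2 and quantile-normalized over all 42 arrays, and probes with a score over 0.95 on at least 9 arrays were tested. Group means were fitted in limma 3.58.1 (R 4.3.3) on all arrays, so that the 4 groups shared 1 estimate of the spread, with Benjamini-Hochberg adjustment over all tested probes. The fit was repeated without control females 6 to 9. The procedure was tested on simulated data with independent noise for each probe. These data held no differences between arrays of the kind seen in controls 6 to 9, so the test does not cover such differences. Mice were grouped by their labels, and replicate numbers follow the order of the samples, with no label that pairs mice by them. Probes were named from the platform annotation, updated through RefSeq, and a gene in a list is given by its brightest tested probe. A bound for an undetected group compares the mean of the brighter group with, per array, the higher of the lowest signal of a detected probe and the probe's own value. The bound itself was not tested and makes no allowance for the error of the means.

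Named genes were the 12 largest increases and decreases by ratio changed in both fits and detected on most arrays of each group, the 8 widest gaps without overlap, for each list up to 4 genes changed in both fits or else the 2 of lowest p, genes of proteolysis and redox control that the study names, components of the target of Rapa, and 6 examples that lost their call without control females 6 to 9. The members and the 63 lists were chosen with earlier results of these data known. Alternatives covered mice, normalization, background, probe filters, fit, thresholds and probes per gene. Promoters came from RefSeq on GRCm38.p6.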

Additional observations from a re-analysis of the deposited data

Results flagged for a closer look

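In 9 of the 149 named transcripts (6.04%), 1 of the 9 control females lay far from the others, by a gap that took up a large part of the whole range of the group. Chance gives this in about 1 of 20 groups. All 9 values belonged to controls 6 to 9. Control female 6 was the highest for Atp5e (10.39), Mrps18c (11.68) and Pcx (9.70). Control female 9 was the highest for the class II chain H2-Ob (9.61) and the plasma cell marker Mzb1 (11.54), and the lowest for Ube2e3 (8.09), Agpat2 (10.85), the fatty acid hydroxylase Cyp4b1 (7.72) and the brighter probe of Psmd12 (10.48).

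The effect of Rapa in females differed from that in males, by the test of the difference itself, for 35 of the 46 transcripts compared in this way. Most of the 46 had been chosen for their change in females, so the sign of the difference is in large part fixed by that choice. The difference on the log2 scale, females minus males, was positive for Scp2 (1.21), Mug1 (0.93), Herpud1 (0.89), Trim2 (0.82), Nploc4 (0.73), Eif3b (0.67), Eif2s3x (0.64), Ogdh (0.58), Mtor (0.49), Nectin2 (0.48) and Slc44a1 (0.46). It was negative for Nit2 (-1.82), Gng5 (-1.81), Gm12657 (-1.73), Mup20 (-1.72), Zfand6 (-1.72), Cyp2c29 (-1.68), Aadac (-1.63), Serpinc1 (-1.63), Rgn (-1.62), Mrpl13 (-1.55), Ist1 (-1.49), Ndufb4 (-1.47), Ndufb9 (-1.43), Atp5e (-1.41), Sult1e1 (-1.41), Aifm1 (-1.37), Pmpcb (-1.34), Psmd11 (-1.19), Slc3a2 (-1.17), Grtp1 (-1.16), Psmc6 (-0.67), Psmd6 (-0.50), Ube2j1 (-0.50) and Glrx2 (-0.47). Without controls 6 to 9 the difference was no longer past the threshold for Slc44a1, Nectin2, Mup20, Psmd6, Glrx2 and Mtor (adjusted p = 0.0814, 0.0563, 0.076, 0.147, 0.147 and 0.0617).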

How the results depend on the processing

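The number of transcripts changed in females was 2747, and the difference between females and males passed for 2593. Without controls 6 to 9 these counts were 892 and 1139, and control females 1 to 5 against Rapa females 1 to 4 gave 218. Restriction to probes detected on all 42 arrays gave 1778 and 1562, and to those detected on all 20 female arrays 1799 in females. Array weights gave 1822, an absolute log2 ratio over 0.5 gave 409, and 1 probe per gene gave 1809 and 1598. The mean of all tested probes of a gene, an alternative chosen after seeing the data, gave 1739 genes, and 591 without controls 6 to 9. For the difference between the sexes, centring on the median gave 4675 and the components of the probes detected on no array, used as covariates, gave 558. The cause was not tested, except that fewer probes or mice entered where the filter, the representation of a gene or the mice changed. The counts in females under the other alternatives lay within 1.5 times the main count, from 1869 by the methods' t-test to 2910 after normexp correction. The share of higher among changed transcripts was 56.6%, 33.9% without controls 6 to 9, 12.4% in the smaller set and 13.4% over 0.5. Leaving out each female in turn gave 2215 (without control female 6) to 2984 (without control female 3), 2281 to 2800 for the difference between the sexes, and 596 to 1006 once controls 6 to 9 were left out.

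Mice with the same number were not paired by any label. In females the correlation of their deviations was -0.37 to 0.49 (median 0.38), over 0.1 in 6 of 9 pairs. The median was -0.07 for females of different numbers. In males the medians were 0.14 for the same number and -0.02 for different numbers. Of 9 females 2, and of 10 males 2, correlated best with their own number. Females of the same number, except number 5, had arrays in the same range of median signal. Controls 1 to 5 and Rapa females 1 to 4 lay at 110.6 to 124.4 and 111.4 to 122.3. Controls 6 to 9 and Rapa females 5 to 11 lay at 141.7 to 151.7 and 142.5 to 153.5. Whether this bears on the correlation, and what else mice of the same number share, was not tested. With the replicate number as a block the counts were 2710 and 2563. Over the named transcripts and all alternatives, 4708 values kept their direction and side of the threshold, 248 lost the call, 43 gained it and 1 reversed, Col3a1, the collagen of stellate cells and fibroblasts, at 0.017 in the smaller set (adjusted p = 0.996) against -0.56 in all females. Probes near background, such as those of Slc3a2, Pcna and Hsp90aa1 in Rapa females, limit the ratio to a bound or a low estimate.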
